A study of Mus musculus with 12 samples.

Results

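The genes described here encode the mitogen-activated protein (MAP) kinases, the 3 tiers of kinases above them, their JIP scaffolds, and the dual-specificity phosphatases (DUSPs). Some DUSPs switch MAP kinases off. The genes were chosen by symbol from a table of expression values of whole mouse mammary glands, and 68 genes of 37754 gene models with values matched. These are 44 kinase and scaffold genes and 24 Dusp genes, 14 of the latter in the atypical class. Map3k4 stands there 2 times with identical values and was counted once, and 3 rows combine a member with another gene (Dusp19 with Nup35, Mapk8ip3 with Eme2, and Map2k7 with Gm14378) and cannot be assigned to 1 gene.

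The study asked how loss of JNK in the mammary epithelium changes gene expression before and during involution, the regression of the gland after weaning. All mice were C57BL/6 females that were bred at 10 to 12 weeks of age for 1 pregnancy, nursed litters of 6 to 8 pups for 9 days and then had the pups removed. JNK-KO mice carried Wap-Cre and floxed alleles of both Jnk1 (Mapk8) and Jnk2 (Mapk9), and JNK-WT mice carried Wap-Cre alone, so both genotypes express the recombinase. Wap-Cre acts in milk-secreting epithelium, and the other cells of the JNK-KO glands keep both genes intact. The 4 groups were JNK-KO and JNK-WT glands 3 days after weaning (day 3) and JNK-KO and JNK-WT glands on the day of weaning (day 0), with 3 RNA-seq libraries each and 12 in all. Values are FPKM, sequenced fragments scaled to transcript length and to the mapped fragments of the library, and libraries are named by the numbers of the table's columns: 3, 4 and 6 for JNK-KO day 3, 3, 6 and 12 for JNK-WT day 3, and 1, 2 and 3 for each day 0 group. Values of a group are given below in that order.

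A MAP kinase cascade passes a signal from a MAP4K or a small GTPase to a MAP3K, from there to a MAP2K, and on to a MAP kinase, each kinase phosphorylating the next. The ERK branch is driven mainly by growth factors, and the JNK and p38 branches by stress and cytokines. DUSPs of the MAP kinase phosphatase (MKP) type remove the activating phosphates again, and several of their genes are themselves induced by the cascade that they end, which makes their mRNA a commonly read trace of pathway feedback. JNK phosphorylates JUN and related AP-1 transcription factors and is a known regulator of cell death.

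On day 0 milk genes made up 57.4% to 77.27% of the FPKM sum of a library, and antigen receptor gene segments 11.02% to 27.3%. On day 3 milk genes made up 8.83% to 39.08% in JNK-KO and 1.599% to 6.13% in JNK-WT glands. The segments then made up 28.36% to 72.74% in JNK-KO and 66.04% to 73.95% in JNK-WT glands. The part of either in the shifts of most genes given below was not tested. All 13 milk-secreting epithelial markers found (of 14) were above 0 in every library, and their FPKM summed to 232793 to 471600 in JNK-KO and 40492 to 110326 in JNK-WT glands on day 3, and to 775433 to 809774 in JNK-KO and 729805 to 841525 in JNK-WT glands on day 0. As deposited, the median log2 difference of all 14512 genes tested was -0.48 between JNK-KO and JNK-WT on day 3, 0.18 between them on day 0, 1.68 between day 3 and day 0 in JNK-KO and 2.37 in JNK-WT glands. Each result is therefore given as deposited and after median ratio scaling, in which the values of a library are divided by 1 factor, the median over genes of their ratio to an average library, and which brings these medians to between 0.01 and 0.06. On day 3 the 10 adipocyte markers summed to 1641 to 4807 FPKM in JNK-KO and 6839 to 13498 in JNK-WT glands. The 9 neutrophil markers summed to 118 to 378 FPKM in JNK-KO and 20.9 to 26.4 in JNK-WT glands, but nearly all of this was S100a8, at 117, 371 and 248 in JNK-KO and 17.1, 21.3 and 15.9 in JNK-WT glands. Csf3r, the neutrophil growth factor receptor gene, lay the other way, at 0.883, 2.39 and 1.78 FPKM in JNK-KO and 3.03, 2.62 and 4.66 in JNK-WT glands, and the defining marker Ly6g was listed at 0 in all 12 libraries. The part of these cell types in the differences below was not tested, and in whole glands fewer cells of a type and less RNA per cell cannot be told apart. JNK-WT day 0 library 1 stood apart, with 8641 gene models at or above 0.5 FPKM against 10420 to 10871 in the other day 0 libraries.

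Of the 68 members, 58 reached 0.5 FPKM in at least 3 libraries and were tested, 38 kinases and scaffolds and 20 Dusp genes. The 10 below that minimum were Mapk10, which encodes the mainly neuronal JNK3, Mapk15, Mapk8ip2, Map3k13, Map3k15, Map3k19, Dusp9, Dusp15, Dusp21 and Dusp27. Dusp21 was listed at 0 in all 12 libraries, and Mapk10 was at 0 to 0.0652 FPKM. Over the 12 libraries 12 members averaged at least 10 FPKM, led by Dusp7 (38 FPKM), the MEK2 gene Map2k2 (35.6) and the ERK1 gene Mapk3 (33.2). FPKM are per length, so these levels can be set side by side. Within the classes the highest were Mapk9 among the JNK genes (9.78), Mapk13 among the p38 genes (20.1), Map3k1 among the MAP3K genes (12.7), Map4k4 among the MAP4K genes (13.7), Dusp5 among the nuclear inducible MKPs (6.24), Dusp16 among the JNK and p38 MKPs (2.83) and Dusp11, which encodes an RNA phosphatase, among the atypical DUSPs (21.8).

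The targeted genes come first. Mapk8, which encodes JNK1, was at 1.25, 3.57 and 2.79 FPKM in JNK-KO glands on day 3 and at 7.37, 6.57 and 7.90 in JNK-WT glands. Mapk9, which encodes JNK2, was at 5.26, 10.5 and 10.03 FPKM in JNK-KO and at 18.1, 16.1 and 17.8 in JNK-WT glands on that day. All JNK-KO libraries lay below all JNK-WT libraries for both genes, yet neither difference passed the test, at a log2 difference of -1.60 (95% interval -2.55 to -0.65, adjusted p = 0.0510) for Mapk8 and -1.06 (-2.12 to -0.0044, adjusted p = 0.199) for Mapk9. After scaling, Mapk8 was at -1.08 (adjusted p = 0.215) and Mapk9 at -0.56 (adjusted p = 0.547), and the libraries still did not overlap. On day 0 the genotypes overlapped for both genes. Mapk8 was then at 0.986, 0.965 and 2.78 FPKM in JNK-KO and at 1.95, 2.33 and 2.65 in JNK-WT glands. Its overlap came through JNK-KO library 3 alone. Mapk9 was at 4.86, 4.33 and 8.78 FPKM in JNK-KO and at 2.48, 9.04 and 10.2 in JNK-WT glands. Its overlap came through JNK-WT library 1 alone. These values do not measure recombination, since FPKM of a whole gene include exons that the deletion leaves in place and RNA of cells without Wap-Cre.

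**Figure D1:**
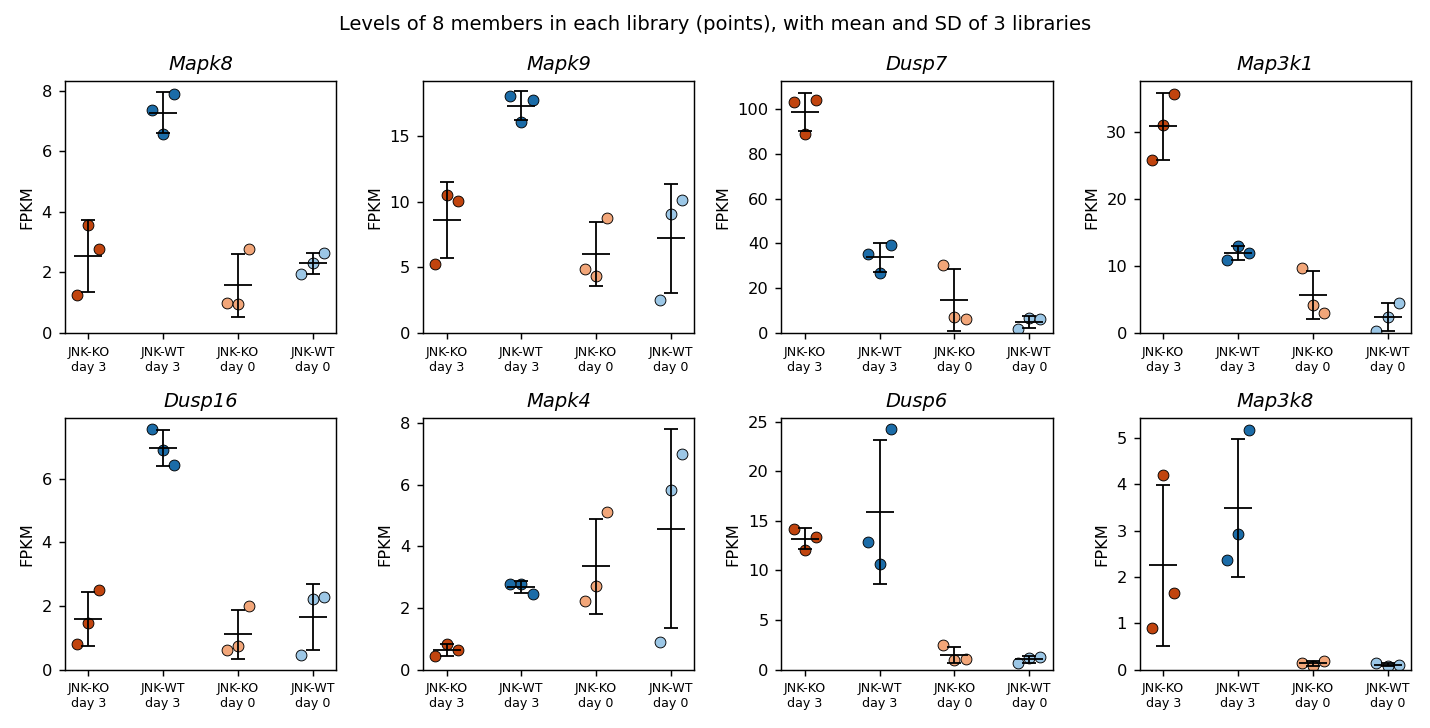
FPKM as deposited (vertical axes, from 0) of 8 members in JNK-KO day 3, JNK-WT day 3, JNK-KO day 0 and JNK-WT day 0 glands; points are the 3 libraries of a group, and bars the mean and SD. Mapk8, Mapk9, Dusp16 and Mapk4 lay lower in all JNK-KO than in all JNK-WT libraries on day 3, Dusp7 and Map3k1 lay higher, and Dusp6 and Map3k8 overlapped.

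Between the genotypes on day 3, most members lay lower in JNK-KO glands, as did most genes, but few passed the test, and none after scaling. As deposited, 5 of 58 were lower (8.62%, against 5.62% of all genes tested) and 0 were higher (0.544% of all genes). They were Dusp13, Dusp16, Mapk12, Map2k6 and Dusp26. The median over the 58 was -0.69, against -0.48 over all genes, and -0.19 against 0.01 after scaling, when 0 members were called in either direction by limma (0.455% of all genes, 66 genes). Unadjusted p-values under 0.05 were then found for 14 members (24.1%, against 14.1% of all genes), and 23 members as deposited (39.7%, against 24.9%). The libraries did not overlap, with JNK-KO glands lower, for 34 members as deposited (58.6%, against 43.9% of all genes) and for 18 after scaling (31%, against 15.6%). They did not overlap, with JNK-KO glands higher, for 4 members as deposited (6.9%, against 2.81%) and for 6 after scaling (10.3%, against 17.3%). The count of 5 leaned on single libraries, as did that of all genes (6.16% called in either direction). It was 0 without JNK-KO day 3 library 3 or 4 or without JNK-WT day 3 library 3 or 6 (0.303% to 1.39% of all genes), and 3 without JNK-WT day 3 library 12 (3.92%). Day 0 libraries enter it through the shared spread. It was 22 without JNK-WT day 0 library 1 (20 lower, against 17.8% of all genes, and 2 higher, Dusp7 and Map3k1, against 1.29%), and 3 without JNK-KO or JNK-WT day 0 library 2 (4.09% and 4.95% of all genes).

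**Figure D2:**
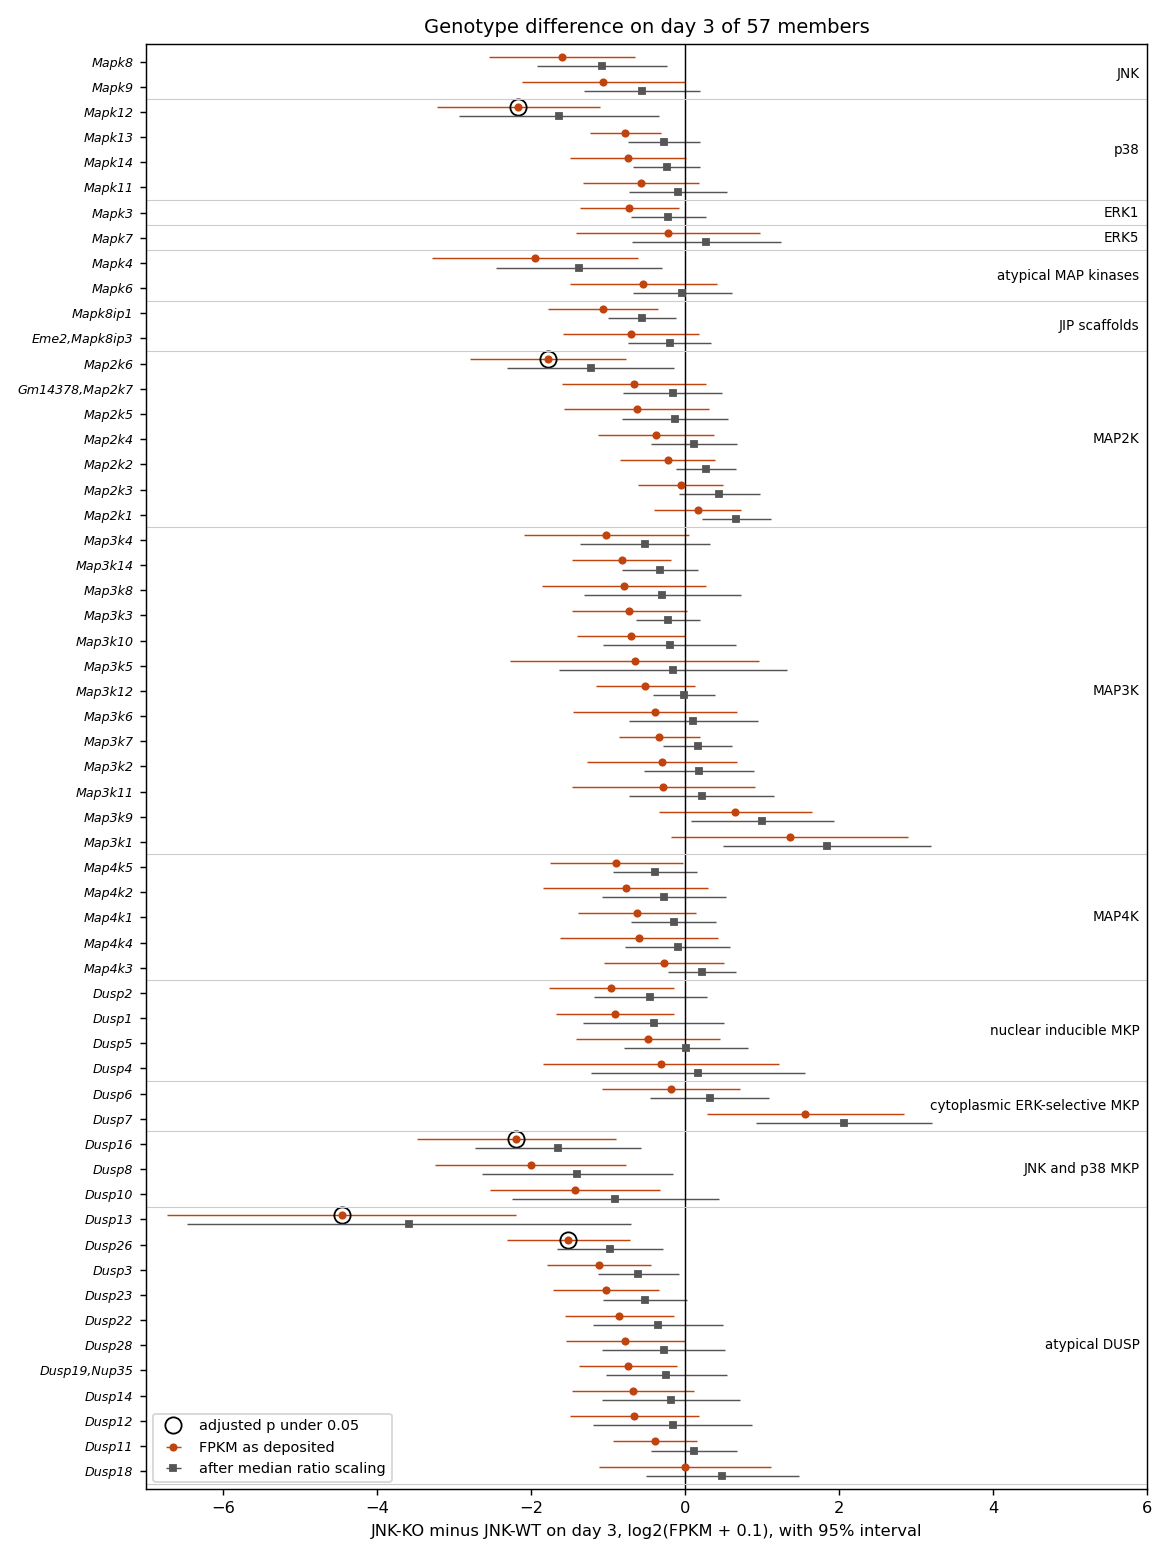
JNK-KO minus JNK-WT on day 3 in log2(FPKM + 0.1) (horizontal axis) for 57 of the members tested, grouped by class, with 95% intervals; circles are FPKM as deposited, squares the values after median ratio scaling, and rings mark an adjusted p under 0.05. The 5 ringed genes, Mapk12, Map2k6, Dusp16, Dusp13 and Dusp26, lie on the left, and Dusp7 and Map3k1 lie farthest to the right.

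In the p38 branch, Mapk12 and Map2k6 were lower in JNK-KO glands and the other genes did not pass the test. Mapk12, which encodes p38 gamma, a form abundant in skeletal muscle, was at 1.16, 1.80 and 1.88 FPKM in JNK-KO and at 11.001, 9.16 and 4.10 in JNK-WT glands on day 3. Map2k6, which encodes MKK6, an activator of p38, was at 0.465, 0.630 and 0.886 FPKM in JNK-KO and at 3.06, 3.403 and 1.38 in JNK-WT glands. The groups did not overlap for either gene, and in both JNK-WT library 12 was the lowest of its group. The log2 differences were -2.17 (standard error 0.49, adjusted p = 0.0275) for Mapk12 and -1.78 (standard error 0.47, adjusted p = 0.0443) for Map2k6, and -1.63 (adjusted p = 0.223) and -1.23 (adjusted p = 0.280) after scaling. Mapk14, which encodes the broadly expressed p38 alpha, stood at -0.74 (adjusted p = 0.208), and Mapk13, the p38 delta gene of epithelia, at -0.78 (adjusted p = 0.0504). After scaling these were -0.24 and -0.27. Map2k3, which encodes the other p38-activating MAP2K, was at -0.06 (adjusted p = 0.885).

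On day 3 skeletal muscle markers, like Mapk12, Map2k6 and Dusp13, were lowest of the JNK-WT glands in library 12. The 7 markers found of 8 (among them Ckm, Myh4, Mylpf and Tnnt3) summed to 13.9, 16.6 and 126 FPKM in JNK-KO and to 6988, 7040 and 448 in JNK-WT glands on day 3, and to 27.7, 283 and 939 in JNK-KO and 621, 138 and 6.04 in JNK-WT glands on day 0. In 1 library 1 of them was at 0. On day 0 Mapk12 took the order of the sums, at 0.358, 0.660 and 1.26 FPKM in JNK-KO and 0.963, 0.534 and 0.378 in JNK-WT glands. Map2k6 took it in JNK-KO glands, at 0.188, 0.242 and 0.769 FPKM, but not in JNK-WT glands, at 0.366, 0.510 and 0.361. Dusp13, an atypical DUSP gene with a muscle form, was at 0.0724, 0.0418 and 0.327 FPKM in JNK-KO and at 10.8, 8.27 and 1.13 in JNK-WT glands on day 3. It took the order of the marker sums within JNK-WT day 3 to the extent that libraries 3 and 6 stood far above library 12, and on day 0 it was highest where the sum was highest, at 1.16 FPKM in JNK-KO library 3 and 0.620 in JNK-WT library 1. Its log2 difference on day 3 was -4.46 (standard error 1.04, adjusted p = 0.0313), and -3.59 after scaling (adjusted p = 0.229). Dusp27, a muscle-enriched gene below the minimum, was at 0, 0.0261 and 0.0655 FPKM in JNK-KO and at 3.58, 2.95 and 0.243 in JNK-WT glands on day 3. Without JNK-WT day 3 libraries 3 and 6, an alternative chosen after seeing the data, Mapk12 was at -1.32, Map2k6 at -1.0004 and Dusp13 at -2.49, against a median of -0.66 over all genes. After scaling they were at -0.64, -0.35 and -1.47, against a median of -0.0099. JNK-WT day 3 is then 1 library, which is assumed to vary like the other groups, so only the sizes of the differences are given for this alternative. The part of muscle tissue in these differences was not tested.

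Dusp26 and Dusp16, the other members that passed, were not lowest in JNK-WT day 3 library 12 to the extent of the muscle markers. Dusp26, an atypical DUSP gene, was at 0.466, 0.633 and 1.09 FPKM in JNK-KO and at 2.52, 1.80 and 2.23 in JNK-WT glands on day 3, with JNK-WT library 12 between the other two. Its log2 difference was -1.52 (standard error 0.37, adjusted p = 0.0334), -0.98 after scaling (adjusted p = 0.176), and -1.56 with library 12 as the 1 JNK-WT day 3 library. On day 0 Dusp26 and Dusp16 were highest of the JNK-KO glands in library 3, at 0.505 and 1.99 FPKM, where the muscle marker sum was highest. Of the JNK-WT glands both were lowest in library 1, at 0.0710 and 0.467 FPKM, where the sum was highest of that group. The part of muscle tissue in these 2 genes was not tested. Of the 5 called members Dusp13 alone would not have reached the minimum of 0.5 FPKM in 3 libraries without the JNK-WT day 3 group, where it was high.

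**Figure D3:**
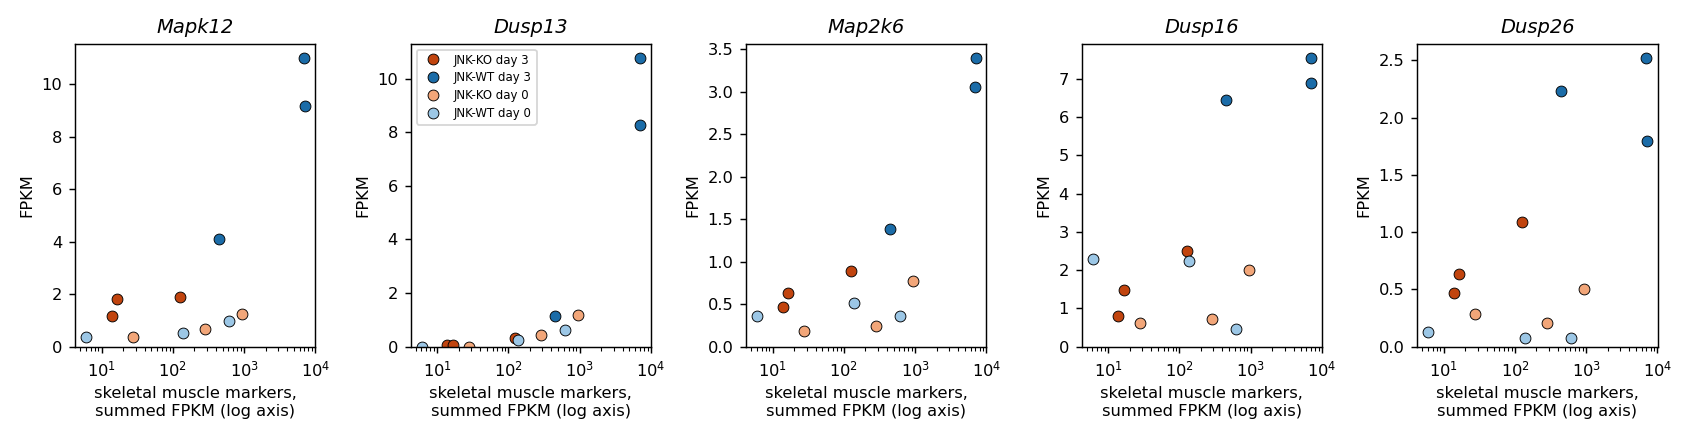
FPKM of Mapk12, Dusp13, Map2k6, Dusp16 and Dusp26 (vertical axes, from 0) in each of the 12 libraries against the summed FPKM of 7 skeletal muscle markers (horizontal log axis); colours mark the 4 groups. JNK-WT day 3 library 12, with a sum of 448, lies well below libraries 3 and 6 for Mapk12, Dusp13 and Map2k6, but at 6.45 FPKM beside 7.55 and 6.89 for Dusp16 and at 2.23 beside 2.52 and 1.80 for Dusp26.

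Of the 3 phosphatase genes whose products act mainly on JNK and p38, Dusp16 passed the test on day 3, as lower in JNK-KO glands, while Dusp8 and Dusp10 did not. Dusp16, which encodes the JNK phosphatase MKP-7, was at 0.794, 1.48 and 2.50 FPKM in JNK-KO and at 7.55, 6.89 and 6.45 in JNK-WT glands. Its groups did not overlap, and its log2 difference of -2.19 (standard error 0.59, adjusted p = 0.04999) passed the threshold narrowly. After scaling it was -1.65 (adjusted p = 0.145), and with library 12 as the 1 JNK-WT day 3 library it was -2.09, or -1.37 scaled. Dusp8 was at 0.230, 0.281 and 0.607 FPKM in JNK-KO and at 2.60, 1.39 and 1.33 in JNK-WT glands, and Dusp10, which encodes MKP-5, at 0.586, 0.756 and 0.838 in JNK-KO and at 3.39, 1.90 and 1.46 in JNK-WT glands. Neither overlapped, and neither passed, at -2.01 (adjusted p = 0.0590) and -1.43 (adjusted p = 0.114). JNK-WT library 12 was the lowest of its group for both, and with it as the 1 JNK-WT day 3 library they stood at -1.68 and -0.93, or at -0.91 and -0.28 scaled. Dusp8 reached the minimum of 0.5 FPKM in 3 libraries only through the JNK-WT day 3 group, where it was high. On day 0 the 3 genes overlapped between the genotypes, at log2 differences of -0.46 for Dusp16, -0.19 for Dusp8 and 0.44 for Dusp10. Like Dusp16, Dusp8 and Dusp10 were then highest of the JNK-KO glands in library 3, at 0.804 and 0.637 FPKM, where the muscle marker sum was highest. In JNK-WT library 1, with the highest sum of its group, Dusp8 was lowest and Dusp10 highest, at 0.142 and 0.195 FPKM. The part of muscle tissue was not tested.

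The promoters of Dusp16 and Mapk12 are shown because these are the called phosphatase and the called MAP kinase with a single RefSeq start. The sequences are the 250 bases before that start from RefSeq on build GRCm38.p6, read 5′ to 3′ on the gene's strand, at chr6:134792629-134792878 (minus strand) for Dusp16 and chr15:89140704-89140953 (minus strand) for Mapk12. Capitals would mark a match on either strand to 6 motifs: AP-1 as TGANTCA, CRE as TGACGTCA, STAT as TTCNNNGAA, ETS as CCGGAA, NF-kB as GGGA and CC with any 4 bases between them, and the muscle-type E-box as CAGCTG. Neither window holds a match, which says only that these letters are not in it.
Dusp16: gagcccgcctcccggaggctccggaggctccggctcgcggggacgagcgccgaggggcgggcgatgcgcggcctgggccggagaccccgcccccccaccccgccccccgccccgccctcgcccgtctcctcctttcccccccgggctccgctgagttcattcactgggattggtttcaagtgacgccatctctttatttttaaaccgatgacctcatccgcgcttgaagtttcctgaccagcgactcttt
Mapk12: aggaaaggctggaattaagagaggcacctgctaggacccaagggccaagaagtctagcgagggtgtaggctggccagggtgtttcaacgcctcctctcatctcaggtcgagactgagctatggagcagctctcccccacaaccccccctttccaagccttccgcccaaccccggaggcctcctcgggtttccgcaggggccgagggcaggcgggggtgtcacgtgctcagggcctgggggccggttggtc

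Of all 32851 RefSeq promoters of this length, 6.75% hold the AP-1 letters, 1.55% the CRE, 7.02% the STAT, 12% the ETS, 17.6% the NF-kB and 13% the E-box letters. Of 66 such entries of 52 members, 4 held AP-1, 3 CRE, 3 STAT, 14 ETS (21.2%), 19 NF-kB (28.8%) and 14 the E-box (21.2%). The AP-1 matches were those of 4 genes, Dusp13, Map2k6, Map2k7 and Map3k10. Entries of 1 gene can overlap, and a match is a description of letters, not of binding.

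Some members lay higher in JNK-KO glands on day 3, against the direction of most. Dusp7, which encodes the cytoplasmic ERK phosphatase MKP-X, was at 103, 89.0 and 104 FPKM in JNK-KO and at 35.2, 26.8 and 39.2 in JNK-WT glands. Map3k1, which encodes MEKK1, a kinase above the JNK and ERK branches, was at 25.8, 31.2 and 35.8 FPKM in JNK-KO and at 10.9, 12.96 and 11.95 in JNK-WT glands. Neither gene's groups overlapped. Neither passed the test, at log2 differences of 1.56 (95% interval 0.28 to 2.84, adjusted p = 0.132) and 1.35 (-0.18 to 2.89, adjusted p = 0.249), and at 2.06 (adjusted p = 0.105) and 1.85 (adjusted p = 0.189) after scaling. JNK-WT day 0 library 1 was the lowest of its group, at 1.67 FPKM of Dusp7 and 0.301 of Map3k1. JNK-KO day 0 library 1 was the highest of its group, at 30.5 and 9.69 FPKM. Without JNK-WT day 0 library 1 both passed by limma (adjusted p = 0.0408 and 0.0330), but 19.1% of all genes were then called, against 6.16% with it. The 2 other members without overlap in this direction, chosen after their values were seen, were Map3k9, at 0.970, 1.29 and 1.59 FPKM in JNK-KO and 0.739, 0.753 and 0.807 in JNK-WT glands, and the MEK1 gene Map2k1, at 28.5, 24.7 and 27.8 in JNK-KO and 24.3, 23.4 and 24.4 in JNK-WT glands. Their log2 differences were 0.65 (adjusted p = 0.374) and 0.16 (adjusted p = 0.673).

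The rest of the ERK branch lay close to the median of all genes. Mapk3, which encodes ERK1, was at -0.72 (adjusted p = 0.157), Map2k2 at -0.23 and the ERK5 gene Mapk7 at -0.22. Dusp6, which encodes the ERK feedback phosphatase MKP-3, was at 14.1, 12.1 and 13.4 FPKM in JNK-KO and at 12.8, 10.7 and 24.2 in JNK-WT glands, with overlap and a difference of -0.18 (95% interval -1.07 to 0.71). The nuclear inducible MKPs Dusp1, Dusp2, Dusp4 and Dusp5 lay between -0.96 and -0.32, with 0 of 4 called, and after scaling between -0.45 and 0.17. Among the atypical MAP kinases, Mapk4, which encodes ERK4, was at 0.436, 0.823 and 0.652 FPKM in JNK-KO and at 2.78, 2.79 and 2.47 in JNK-WT glands, without overlap (-1.95, adjusted p = 0.0818). The JIP1 scaffold gene Mapk8ip1 was at 1.98, 2.79 and 3.60 FPKM in JNK-KO and at 6.10, 4.72 and 6.78 in JNK-WT glands (-1.07, adjusted p = 0.0759). None of the 13 MAP3K or 5 MAP4K genes tested passed, with class medians of -0.52 and -0.63.

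On day 0, before involution, 0 of 58 members differed between the genotypes with either scaling (0.0138% of all genes in both, 2 genes). Unadjusted p-values under 0.05 were found by limma for 5 members (8.62%) and 450 genes (3.1%) as deposited, and for 8 members (13.8%) and 938 genes (6.46%) after scaling. The lowest of them were Dusp26, Dusp7 and Dusp11. Dusp26 was at 0.288, 0.207 and 0.505 FPKM in JNK-KO and at 0.0710, 0.0786 and 0.127 in JNK-WT glands. Its direction was opposite to that on day 3 (1.13, adjusted p = 0.810), although most of these values lie under the 0.5 FPKM minimum. Dusp7 was at 30.5, 7.35 and 6.32 FPKM in JNK-KO and at 1.67, 6.84 and 6.09 in JNK-WT glands, so that 1 library of each group set its difference of 1.42 (adjusted p = 0.810). JNK-KO day 0 library 1 was also the highest of its group for Map3k1, at 9.69 FPKM, Dusp4, at 2.46, Dusp5, at 4.53, and Dusp6, at 2.46. Dusp11 was at 8.10, 6.996 and 8.92 FPKM in JNK-KO and at 11.6, 14.2 and 10.9 in JNK-WT glands (-0.60, adjusted p = 0.810).

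Between day 3 and day 0 nearly all members were higher on day 3 as deposited, as were nearly all genes. In JNK-KO glands 49 of 58 were higher (84.5%, against 80% of all genes) and 1, Mapk4, was lower (1.72%, against 1.37%). In JNK-WT glands 57 were higher (98.3%, against 91.5%) and 0 were lower (1.34% of all genes). After scaling, 7 members were higher and 4 lower on day 3 in JNK-KO glands (11.3% and 9.87% of all genes), and 11 were higher and 7 lower in JNK-WT glands (19.1% and 16.4%). All 11 members called in JNK-KO glands were called in the same direction in JNK-WT glands. The member medians after scaling were 0.01 in JNK-KO and 0.18 in JNK-WT glands, against 0.04 and 0.06 over all genes. The fold changes below are relative to the bulk of genes in this sense.

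The members that rose beyond most genes in both genotypes were Map3k8, Dusp6, Map4k4, Mapk11, Map3k14, Dusp2 and Map3k12. Map3k8, which encodes TPL2, a MAP3K of inflammatory ERK signalling, was at 0.903, 4.20 and 1.65 FPKM on day 3 and at 0.135, 0.0900 and 0.186 on day 0 in JNK-KO glands, and at 2.37, 2.92 and 5.18 on day 3 and at 0.138, 0.0699 and 0.105 on day 0 in JNK-WT glands. The scaled log2 differences were 1.69 in JNK-KO (standard error 0.46, adjusted p = 0.0252) and 2.07 in JNK-WT glands (standard error 0.46, adjusted p = 0.00589). Dusp6, at the day 3 levels given above, was at 2.46, 0.938 and 1.06 FPKM on day 0 in JNK-KO and at 0.653, 1.20 and 1.32 in JNK-WT glands, and rose by 1.47 in JNK-KO (adjusted p = 0.0130) and 1.34 in JNK-WT glands (adjusted p = 0.0130). Map4k4, a MAP4K above the JNK branch, was at 13.5, 22.9 and 23.6 FPKM on day 3 and at 3.01, 2.47 and 2.64 on day 0 in JNK-KO glands, and rose by 1.05 there (adjusted p = 0.0340) and by 1.60 in JNK-WT glands (adjusted p = 0.00281).

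Map3k8, Map3k14, Mapk11 and Dusp2 had day 0 levels under 0.5 FPKM in every library, as did Map4k1 and Dusp14. These 6 of the 58 entered the test only through day 3 libraries, where they were high. Map3k8, Map3k14, Mapk11 and Dusp2 are among the 7 members counted as higher in JNK-KO glands after scaling. The same genes and Map4k1 are among the 11 counted in JNK-WT glands. The filter favoured their place in these counts, which were not taken without them. Map3k14, which encodes NIK, the kinase of the alternative NF-kB pathway, was at 1.54, 2.70 and 1.89 FPKM on day 3 and at 0.359, 0.288 and 0.262 on day 0 in JNK-KO glands, and at 3.46, 3.23 and 4.19 on day 3 and at 0.163, 0.210 and 0.257 on day 0 in JNK-WT glands. It rose by 0.84 in JNK-KO (adjusted p = 0.0218) and 1.44 in JNK-WT glands (adjusted p = 0.000779). Mapk11, which encodes p38 beta, rose by 1.19 in JNK-KO (adjusted p = 0.0143) and 1.10 in JNK-WT glands (adjusted p = 0.0134). Dusp2, a nuclear phosphatase gene of immune cells, rose by 1.05 in JNK-KO (adjusted p = 0.0451) and 1.01 in JNK-WT glands (adjusted p = 0.0364). It was at 0.239, 0.623 and 0.271 FPKM in JNK-KO and at 0.686, 0.588 and 1.13 in JNK-WT glands on day 3. On day 0 it was at 0.0134 to 0.0669 FPKM over both genotypes, under the 0.1 FPKM added before the logarithm. It reached the minimum of 0.5 FPKM in 3 libraries only through the JNK-WT day 3 group, where it was high. Map3k12, which encodes DLK, a MAP3K of the JNK branch, rose by 0.56 in JNK-KO (adjusted p = 0.0482) and 0.64 in JNK-WT glands (adjusted p = 0.0182). Macrophage markers, 11 found of 12, were also higher on day 3 as deposited. They summed to 315 to 761 FPKM in JNK-KO and 805 to 1934 in JNK-WT glands on day 3. On day 0 they summed to 28.8 to 49.8 in JNK-KO and 29.9 to 55.4 in JNK-WT glands. Markers of other cell types were higher too. Over both genotypes, fibroblast and matrix markers summed to 430 to 2128 FPKM on day 3 and 43.1 to 109 on day 0. Luminal epithelial markers summed to 1166 to 1827 FPKM on day 3 and 206 to 410 on day 0. These sums are not scaled, while the rises of the members are. The part of any cell type in these rises was not tested.

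Another 4 members were higher on day 3 in JNK-WT glands by the scaled test while JNK-KO glands did not pass it: Dusp26 (1.67), Map3k6 (1.14), the haematopoietic kinase gene Map4k1 (1.03) and Map2k5 (0.95), the MAP2K of ERK5. In JNK-KO glands these stood at -0.54, 0.81, 0.56 and 0.32. No difference between the changes of the genotypes passed the test for any of them, as given below.

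**Figure D4:**
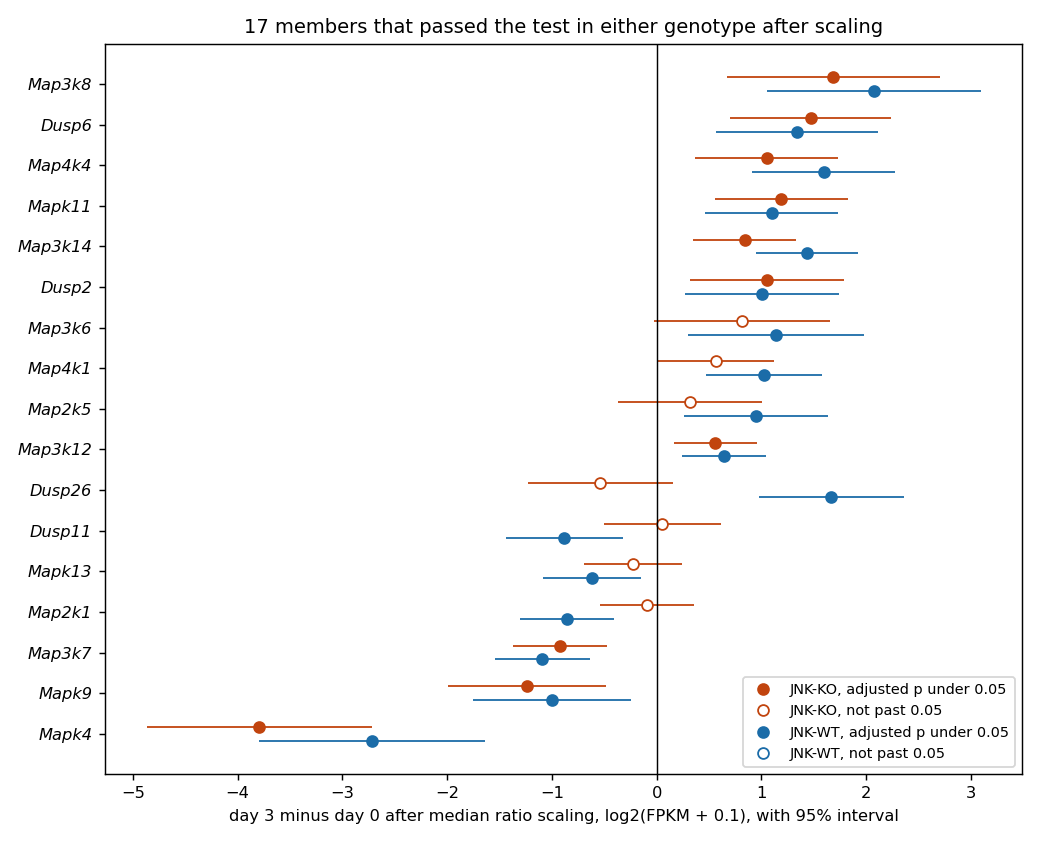
Day 3 minus day 0 after median ratio scaling in log2(FPKM + 0.1) (horizontal axis), with 95% intervals, for 17 members past an adjusted p of 0.05 in either genotype; filled points passed and open points did not. Both genotypes lie on the same side of 0 for all but Dusp26 and Dusp11, and Mapk4 lies lowest in both.

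Among the members that fell relative to most genes in both genotypes were Mapk4, Map3k7 and Mapk9. Mapk4 alone was lower as deposited as well, in JNK-KO glands, at 0.436, 0.823 and 0.652 FPKM on day 3 and 2.24, 2.71 and 5.12 on day 0 (-2.18, adjusted p = 0.00637). In JNK-WT glands it was at 2.78, 2.79 and 2.47 FPKM on day 3 and 0.910, 5.81 and 6.99 on day 0, with overlap through library 1. After scaling the log2 differences were -3.79 in JNK-KO (adjusted p = 0.000420) and -2.72 in JNK-WT glands (adjusted p = 0.00181). Map3k7, which encodes the cytokine-responsive kinase TAK1, and Mapk9 had a positive difference as deposited in both genotypes, but a smaller one than most genes, and that of Mapk9 in JNK-KO glands did not pass (0.52, adjusted p = 0.328). Their scaled differences were -0.92 and -1.24 in JNK-KO glands (adjusted p = 0.00920 and 0.0258) and -1.09 and -0.998 in JNK-WT glands (adjusted p = 0.00235 and 0.0416). In JNK-WT glands Dusp11 (-0.88), Map2k1 (-0.85) and Mapk13 (-0.61) also passed, and in JNK-KO glands they stood at 0.05, -0.09 and -0.23. Mapk8, at -0.98 in JNK-KO and -0.82 in JNK-WT glands, did not pass (adjusted p = 0.0923 and 0.116).

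The promoters of Dusp6 and Map3k14 are shown as examples of risers whose windows hold a match. They are the 250 bases before the RefSeq start on GRCm38.p6, 5′ to 3′ on the gene's strand, at chr10:99262981-99263230 (plus strand) for Dusp6 and chr11:103267402-103267651 (minus strand) for Map3k14. Capitals mark the NF-kB letters on the opposite strand, from 86 bases before the start, in Dusp6, and the ETS letters, from 237 bases before it, in Map3k14. The other 5 motifs had no match in either window.
Dusp6: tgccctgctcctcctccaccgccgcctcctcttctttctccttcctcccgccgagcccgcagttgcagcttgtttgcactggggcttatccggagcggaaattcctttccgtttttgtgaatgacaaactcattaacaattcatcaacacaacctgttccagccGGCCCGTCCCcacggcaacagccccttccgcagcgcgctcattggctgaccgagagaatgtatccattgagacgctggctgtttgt
Map3k14: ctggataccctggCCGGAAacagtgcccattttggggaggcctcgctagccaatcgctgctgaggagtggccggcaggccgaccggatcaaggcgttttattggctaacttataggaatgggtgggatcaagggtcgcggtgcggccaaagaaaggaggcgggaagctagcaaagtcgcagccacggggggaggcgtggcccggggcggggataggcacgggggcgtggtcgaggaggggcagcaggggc

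The change from day 0 to day 3 was then compared between the genotypes. No member passed with either scaling (0.0138% of all genes, 2 genes), while unadjusted p-values under 0.05 were found by limma for 11 members (19%) and 2705 genes (18.6%) as deposited and for 3 members (5.17%) and 1880 genes (13%) after scaling. The lowest were those of Dusp26, Mapk12 and Dusp13. The day 3 minus day 0 difference of Dusp26 was 0.92 in JNK-KO and 3.57 in JNK-WT glands, a difference of -2.64 (95% interval -3.78 to -1.51, adjusted p = 0.0703). Those of Mapk12 were 1.11 in JNK-KO and 3.46 in JNK-WT glands (-2.35, adjusted p = 0.123), and those of Dusp13 -0.90 in JNK-KO and 4.04 in JNK-WT glands (-4.94, adjusted p = 0.128). After scaling the 3 differences were -2.21 (adjusted p = 0.179), -1.61 and -3.87. As deposited, the difference was -0.92 (-2.26 to 0.42) for Mapk8 and -0.96 (-2.46 to 0.54) for Mapk9. The JNK and p38 MKPs lay between -1.87 and -1.74, and the median over all genes was -0.67. After scaling, Mapk8 and Mapk9 lay between -0.24 and -0.16. The JNK and p38 MKPs then lay between -1.19 and -0.98, against a median of -0.00088 over all genes.

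Genes around the members in the same pathways were read from 6 lists. Between the genotypes on day 3, with 5.62% of all genes called lower in JNK-KO, 0 of the 18 adaptors and kinases upstream of JNK and p38 passed, and of the 14 genes of the RAS and RAF input 1 was lower in JNK-KO glands, the ERK scaffold gene Ksr1 (-2.53, adjusted p = 0.0211). Of the 10 kinases activated by MAP kinases 2 were lower, Rps6ka2 (-1.86, adjusted p = 0.0315) and the p38 target kinase gene Mapkapk2 (-1.09, adjusted p = 0.0478). Of the 20 transcription factor targets tested 2 were lower, Mef2c (-2.92, adjusted p = 0.0178) and Jun (-2.07, adjusted p = 0.0251). None of the 6 Sprouty and SPRED inhibitors or 7 other phosphatases tested passed, 0 genes of the lists were higher, and after scaling 0 passed in either direction. Jun, the main AP-1 target of JNK, was at 4.32, 7.79 and 12.2 FPKM in JNK-KO and at 26.4, 27.4 and 43.1 in JNK-WT glands, without overlap. Mef2c, a transcription factor gene also used in muscle, was at 1.06, 1.63 and 2.51 FPKM in JNK-KO and at 21.2, 17.5 and 5.95 in JNK-WT glands, and JNK-WT library 12 was again the lowest, as in the muscle marker sum. The same held for Ksr1, at 0.739, 1.34 and 2.02 FPKM in JNK-KO and 11.2, 8.78 and 4.86 in JNK-WT glands, and for Rps6ka2, at 0.821, 0.988 and 1.14 in JNK-KO and 5.27, 4.998 and 2.10 in JNK-WT glands. The part of muscle tissue in these 3 was not tested.

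Beyond the shift of most genes, many of the transcription factor targets rose between day 0 and day 3. After scaling 6 of 20 were higher and 0 lower in JNK-KO glands (11.3% and 9.87% of all genes), and 13 higher and 0 lower in JNK-WT glands (19.1% and 16.4%), with medians of 1.0008 and 1.24 against 0.04 and 0.06 over all genes. Egr2, Egr3 and Fosb had day 0 levels under 0.5 FPKM in every library. They entered the test only through day 3 libraries, where they were high, so the filter favoured their rise. They are part of these counts and medians, and the lists below hold such genes too. Junb was at 33.2, 44.6 and 47.1 FPKM on day 3 and at 2.77, 0.737 and 0.482 on day 0 in JNK-KO glands, and at 32.1, 27.4 and 59.8 on day 3 and at 0.569, 0.686 and 0.595 on day 0 in JNK-WT glands. Its scaled log2 difference was 3.51 in JNK-KO (adjusted p = 0.000704) and 3.33 in JNK-WT glands (adjusted p = 0.000586). Among the adaptors, the stress genes Gadd45a and Gadd45b, whose products bind a MAP3K, rose in both genotypes, by 2.37 and 2.43 in JNK-KO and by 4.14 and 1.70 in JNK-WT glands. Of the other lists, 2 adaptors were higher and 1 lower in JNK-KO and 5 and 2 in JNK-WT glands, the RAS and RAF input had 0 and 2 in JNK-KO and 2 and 1 in JNK-WT glands, and the activated kinases had 2 and 0 in JNK-KO and 3 and 1 in JNK-WT glands. The Sprouty and SPRED list had 0 and 0 in JNK-KO and 1 and 0 in JNK-WT glands, and the other phosphatases 2 and 0 in each, to be read against the same shares of all genes.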

How the data were processed

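Per the study's methods RNA was isolated from mammary glands 2 to 5, and 12 libraries were sequenced, 3 in each of 4 groups. According to the submitters' processing notes, the authors aligned reads to GRCm38 with TopHat2 (version 2.0.14) and Bowtie2 and quantified genes with Cufflinks (version 2.2.1) and Cuffdiff. The values deposited by the authors are FPKM, with no further scaling between libraries. The table has 37756 rows. Of these 2 carry no FPKM, 466 combine several symbols and 24 have symbols that a spreadsheet turned into dates. The authors' own p- and q-value columns, for JNK-WT glands on day 3 and day 0, were not used. Column names give the group. Their numbers are those of the labels on day 0 but not on day 3, so none was taken to name a sample.

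Gene models with at least 0.5 FPKM in at least 3 libraries (14512) entered 1 fit of 4 group means on log2(FPKM + 0.1), in limma 3.58.1 with a mean-variance trend (R 4.3.3; 8 residual and 4.031 prior degrees of freedom). Tests were two-sided, p-values were adjusted by the Benjamini-Hochberg method over all 14512 gene models in each of 5 comparisons, and genes were called at an adjusted p under 0.05. The script was tested on simulated data. Log2 differences understate changes of genes near the 0.1 FPKM added. An exact permutation test of 3 against 3 libraries cannot go below p = 0.1, so none was used. FPKM carry no counts, so the depth behind a value is unknown. Per the study's methods a group's libraries were made from the glands of 3 mice, so the p-values measure the spread between mice.

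Members and lists were chosen with earlier results of these data known. Named in full were the JNK genes, the members called on day 3, the largest called changes between the days after scaling (up to 8 in each direction), the members of lowest p in the other comparisons (3 where none passed) and the member with the highest mean of each class. Some genes that enter the counts are not reported here by name. Others are named for overlap or as genes of a branch. Marker lists of milk-secreting epithelium, luminal epithelium, adipocytes, neutrophils, macrophages, fibroblasts and matrix, and skeletal muscle were summed. Promoters came from RefSeq (GRCm38.p6). Figures were drawn with matplotlib 3.10.9. Alternatives were 3 scalings, 2 pseudocounts (1 and 0.01), 2 filters, library weights, a fit of the compared groups alone and leaving out libraries.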

Additional observations from a re-analysis of the deposited data

How the results depend on the processing

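Scaling decided most calls, of members as of all genes. As deposited, 5 members were called between the genotypes on day 3, 50 between day 3 and day 0 in JNK-KO and 57 in JNK-WT glands (6.16%, 81.3% and 92.8% of all genes). These counts were 0, 11 and 18 after median ratio scaling (0.455%, 21.1% and 35.5%), 0, 12 and 18 after upper quartile scaling (0.482%, 21.1% and 35.5%), and 0, 6 and 12 after scaling by the FPKM sum without milk genes and antigen receptor segments (0.221%, 15.1% and 28.9%). The count of 5 was also 15 with a pseudocount of 1 FPKM (17.4% of all genes), 0 with 0.01 FPKM (1.76%), 3 with at least 1 FPKM in 3 libraries (5.28%), 32 with array weights per library (3 higher and 29 lower, 33.3%) and 10 with only the compared groups in the fit (2 higher and 8 lower, 6.66%). It was 0 without JNK-WT day 3 libraries 3 and 6, an alternative chosen after seeing the data that leaves that group 1 library, assumed to vary like the other groups, and calls 0.062% of all genes. The causes were not tested. The difference of the changes gave 0 members (0.0138%), but 2 with a pseudocount of 1 FPKM (2.76%). On day 0 no member was called in any alternative run.

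Leaving out each library in turn gave 0 to 22 members on day 3 (0.303% to 19.1% of all genes), 42 to 52 between the days in JNK-KO glands (71.7% to 87.6%), 57 to 57 in JNK-WT glands, 0 to 0 on day 0 and 0 to 1 for the difference of the changes, the 1 without JNK-WT day 3 library 12 (2.09%). With libraries left out, the log2 difference ran from -0.48 to 0.10 for Mapk7 on day 3, from -0.74 to 0.26 for Mapk9 on day 0 and from -1.22 to 0.18 for Mapk4 between the days in JNK-WT glands, and none of these was called as deposited.

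Some directions turned. Between the genotypes on day 3, Mapk7 was at 0.27, Map2k2 at 0.27, Dusp5 at 0.014 and Dusp11 at 0.11 after median ratio scaling, Mapk7 at 0.23, Map2k2 at 0.23 and Dusp11 at 0.066 after upper quartile scaling, and Mapk7 at 0.017 and Map2k2 at 0.015 after scaling by the reduced FPKM sum. With array weights Mapk7 was at 0.26. Between the days, genes above 0 as deposited lay below 0 after scaling. With median ratio, upper quartile and reduced-sum scaling in turn, Mapk8 was at -0.98, -0.92 and -0.66 in JNK-KO and -0.82, -0.64 and -0.29 in JNK-WT glands, Mapk9 at -1.24, -1.17 and -0.89 and at -0.998, -0.81 and -0.46, and Map3k7 at -0.92, -0.86 and -0.58 and at -1.09, -0.90 and -0.55. In JNK-WT glands alone, Dusp11 was at -0.88, -0.69 and -0.34, Map2k1 at -0.85, -0.67 and -0.31, and Mapk13 at -0.61, -0.43 and -0.072.

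The day 0 columns carry the numbers 1, 2 and 3 in both genotypes, as the labels do, but nothing states that a number is shared between mice. The deviations of same-numbered day 0 libraries from their group means correlated at -0.0659, -0.0969 and -0.169 across 14512 genes, and no JNK-KO library correlated best with the JNK-WT library of its own number. With so few libraries this cannot exclude that a number stands for a shared origin. A fit of the 6 day 0 libraries with the number as a replicate block called 0 members (0.00689% of all genes). For comparisons with day 3, no paired analysis was possible because the day 3 columns are numbered 3, 4 and 6 and 3, 6 and 12, unlike the labels.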

Other observations

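In the values that combine a member with a neighbouring gene, Map2k7 with Gm14378 was at 4.72, 6.75 and 6.33 FPKM in JNK-KO and at 9.47, 8.85 and 9.77 in JNK-WT glands on day 3, and Mapk8ip3 with Eme2 at 3.85, 7.71 and 6.05 in JNK-KO and at 8.48, 8.25 and 11.3 in JNK-WT glands. Both lay lower in all JNK-KO libraries, without passing the test (adjusted p = 0.342 and 0.295 by limma). Map2k7 encodes MKK7, a JNK-activating MAP2K, but its share of the combined value is unknown.

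Dusp15, an atypical DUSP gene under the minimum, was at 0.0676, 0.214 and 0.0876 FPKM in JNK-KO and at 1.21, 0.221 and 1.22 in JNK-WT glands on day 3, so that JNK-WT library 6 lay with the JNK-KO libraries. It was at or under 0.0445 FPKM in all 6 day 0 libraries.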
